A study of Drosophila melanogaster with 6 samples.

Results

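The fourth chromosome of Drosophila melanogaster held 112 of the 17609 genes counted in eye-antennal discs, and 58 of these 112 are described here. They are the rows of the count table whose first listed chromosome is 4 and that held at least 10 counts over the 6 libraries. Genes known only by a CG symbol, long noncoding and antisense RNAs, and 12 named genes (ey, toy, onecut, ci, Syt7, unc-13, dpr7, mGluR, RpS3A, ATPsynbeta, ND-49 and eIF4G1) were left out. The choice used position, total count and gene names or symbols, and was made with earlier results of these data known. Of the 58, the reference annotation gave 51 as protein coding, 5 as pseudogenes and 1 as a snoRNA, and Arf102F was not matched to it by symbol. In dm6 coordinates they reach from CR32011, which starts at 5829, to Cadps, which ends at 1271759, with 24 on the plus strand and 34 on the minus strand.

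The discs came from larvae in the third instar, raised for the experiment at 25 °C. In the dTet group the larvae carried ey-Gal4, a driver named after the eye field gene eyeless, with UAS-dTet, which expresses fly Tet, a dioxygenase of nucleic acids, under that driver. The control group carried the same driver with w1118 and no UAS-dTet. Each group had 3 samples, which the labels call biological replicates. Whole eye-antennal discs were used, so the RNA also came from disc cells outside the eye field. The number and sex of the larvae pooled per sample were not stated.

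The fourth chromosome, also called the dot chromosome, is the smallest in this fly. Much of it is packaged with proteins and histone marks of heterochromatin, and yet most of its genes are transcribed. The protein Pof binds these active genes and stimulates their output, whereas the heterochromatin protein HP1a restrains it, with the histone methyltransferase egg marking the chromosome's chromatin. The genes it carries are varied, and encode signalling ligands, guidance receptors, transcription factors, RNA silencing proteins and neuronal proteins.

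The libraries held 16395675 to 19966431 counted read pairs in dTet discs, against 18306991 to 20242356 in control discs. Tet measured 365, 457 and 416 CPM (counts per 1000000 read pairs of the TMM-scaled library) in dTet discs, against 316, 348 and 385 CPM in control discs, and was not called (edgeR adjusted p = 0.244). The pigment gene w, which w1118 mutates and which often marks transgenes, measured 2.57, 3.44 and 6.11 CPM in dTet discs, against 64.0, 52.7 and 50.4 CPM in control discs (13.6-fold lower, adjusted p = 4.4e-05). The group labels were taken as given. The defining markers of the eye-antennal disc all differed: so, eya and dac were lower in dTet discs, and Dll, ct and hth were higher. All 7 neuronal markers fell in dTet discs, and their summed level was 63.7 to 65.2 CPM in dTet discs, against 615 to 668 CPM in control discs. Of 6 hemocyte markers, edgeR, DESeq2 and limma-voom called 0, with 1 at an unadjusted p under 0.05, and their sum was 473 to 494 CPM in dTet discs, against 525 to 555.3 CPM in control discs. Pxn and Hml, of this list, were called lower without control replicate 1. In bulk samples like these, fewer cells of a type and less RNA per cell cannot be told apart.

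Control replicate 1 stood apart in its level of the genes of chromosome 4. All genes of the chromosome together took 2.08%, 2.03% and 2.2% of the counts in dTet replicates 1, 2 and 3, against 2.55%, 1.64% and 1.81% in control replicates 1, 2 and 3. For the 56 genes that passed the filter on low counts, the median deviation from a gene's own 6-library mean, in log2 CPM, was -0.01, 0.02 and 0.12 in the dTet libraries, against 0.34, -0.19 and -0.19 in the control libraries. The dTet libraries thus lay between control replicate 1 and the other two controls. Control replicate 1 was the highest of the 6 libraries for 36 of the 56 genes (64.3%), against 19.7% of all tested genes. In 20 of the 56 (35.7%) it was also true that control replicates 2 and 3 were the lowest of all, a pattern found in 5.05% of all tested genes. The medians of the 5 other chromosome arms showed no such split, and each lay between -0.02 and 0.05 in every library.

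**Figure D1:**
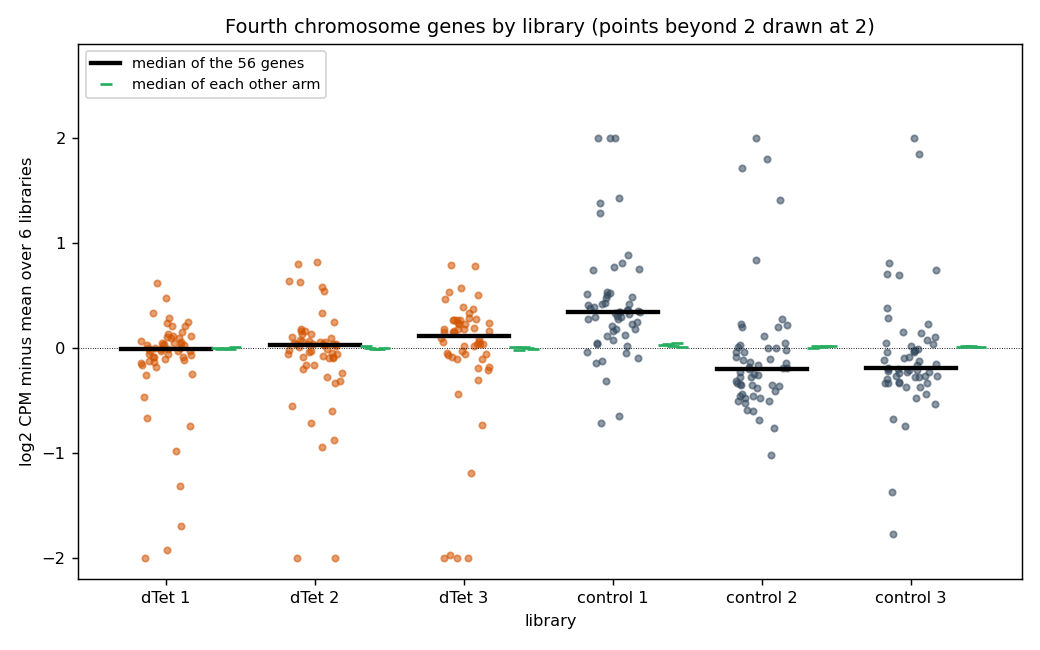
Each point is a gene of the fourth chromosome (56 genes) and shows its log2 CPM in a library minus its mean over the 6 libraries. Black bars give the median of the 56 genes, at 0.34 in control replicate 1 and -0.19 in each of the other controls, and short green bars give the medians of the other chromosome arms, which lie near 0 in every library.

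Exon length also moved with the level in this library, and the excess on the fourth chromosome was larger than that of genes of like length elsewhere. Among genes at 50 CPM or more, control replicate 1 exceeded the mean of control replicates 2 and 3 by a median of 0.53 on the log2 scale for 39 genes of chromosome 4 (quartiles 0.29 and 0.72), against 0.10 for 3661 genes elsewhere. Genes with short exon lengths went the other way in the rest of the genome: the median was -0.28 for the 1242 genes under 2000 bases. Within genes of 2000 bases or more, the median was 0.58 for 35 genes of chromosome 4, of which 34 were above 0, against 0.21 for 2419 genes elsewhere. Compared in bins of length, 31 of the 39 genes lay above the upper quartile of genes elsewhere and 1 lay below the lower quartile. What set this library apart was not tested. Calls that change without control replicate 1 are therefore given beside each result.

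**Figure D2:**
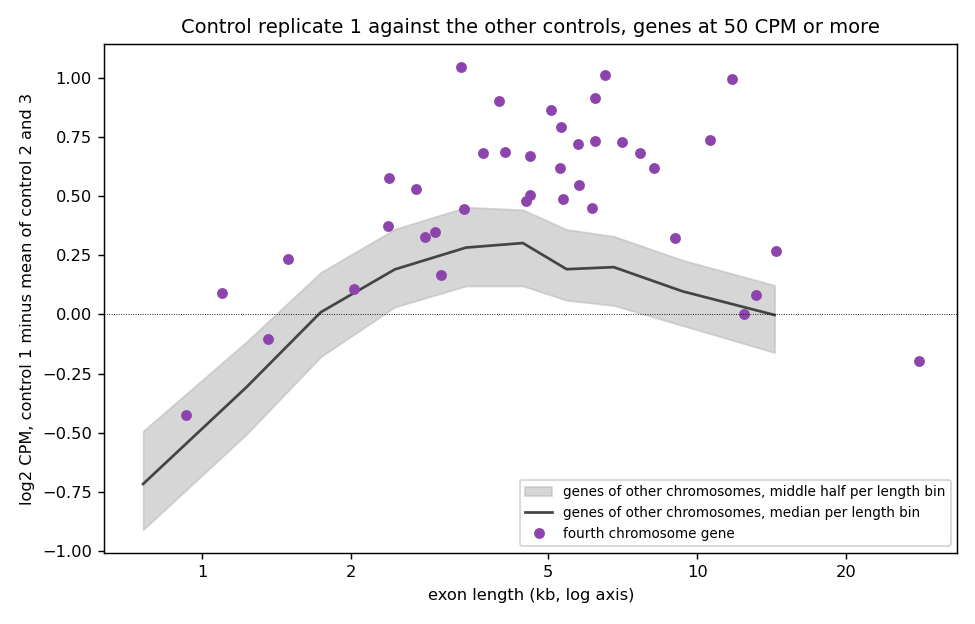
The horizontal axis is the summed exon length of a gene in kb (log scale) and the vertical axis the log2 CPM in control replicate 1 minus the mean of control replicates 2 and 3, for genes at 50 CPM or more. Purple points are 39 genes of chromosome 4. The line and grey band are the median and the quartiles of genes elsewhere by length bin, joined at the median length of each bin. Of the 39 genes, 31 exceed the upper quartile of their own length bin.

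With all 6 libraries, most genes of the chromosome showed no difference past the test, and a few differed strongly. Of the 56 tested genes, 6 differed between dTet and control discs (10.7%), where 11.4% of all 9417 tested genes did (edgeR quasi-likelihood test, adjusted p under 0.05). Ekar, Actbeta, sv and Cadps fell in dTet discs, which makes 7.14% of the 56 against 7.64% of all genes. The genes zfh2 and bt rose, which makes 3.57% against 3.77%. The share called was thus close to the share over the genome for the 56 genes described. Of the 12 named genes left out, 5 were called, all lower in dTet discs. Over all 96 tested genes of the chromosome the share called was 18.8%. The median log2 fold change was 0.04 over the 56 genes and -0.02 over all genes. In 13 of the 56 genes (23.2%) the 2 groups of libraries did not overlap, against 32.6% of all tested genes: dTet lay above control in 4 (7.14%, against 15.1%) and below it in 9 (16.1%, against 17.6%). At an unadjusted p under 0.05 there were 9 of the 56 genes (16.1%), against 28.8% of all. By DESeq2, 8 of the 56 were called (14.3%, against 18.4% of all genes), 2 higher (3.57%, against 6.99%) and 6 lower (10.7%, against 11.4%).

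The precision differed with level. Of the 50 genes not called, 36 measured 50 CPM or more over the libraries, with log2 fold changes from -0.48 to 0.35, and for 35 of these 36 the 95% interval lay within 1 log2 unit of no difference. The other 14 were low. The intervals of Rnf11, Sox102F and CR43361 also lay within 1 log2 unit, and those of the remaining 11 did not and reached from -5.84 to 2.24. The forkhead gene fd102C, with 0, 9 and 7 counts in dTet discs against 4, 0 and 0 in control discs, did not pass the filter. Neither did snoRNA:CD-24, with 1, 4 and 10 counts in dTet discs against 10, 5 and 5 in control discs.

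**Figure D3:**
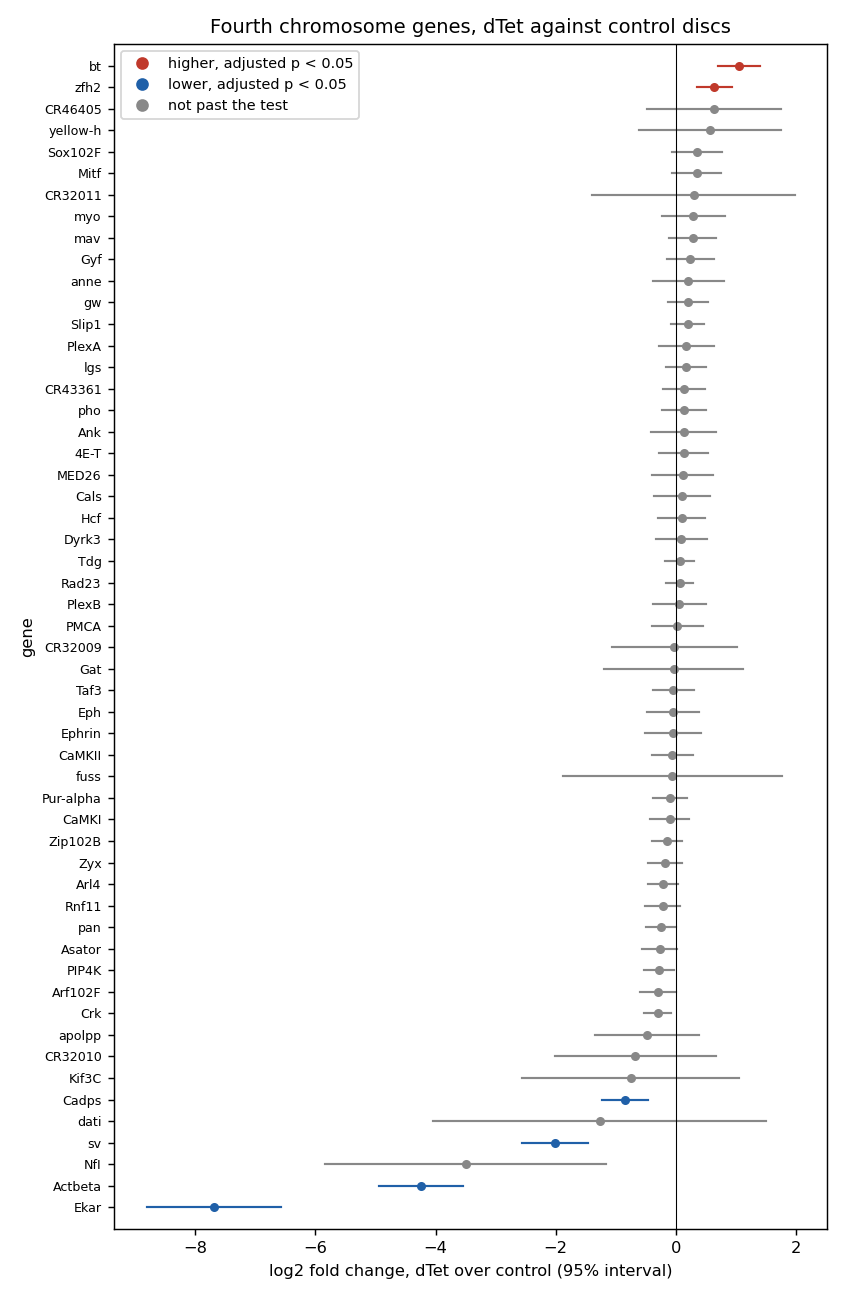
Points are log2 fold changes of dTet over control for 54 of the 56 tested genes, with 95% intervals from the edgeR fit. The genes past the test are bt and zfh2, higher in dTet discs (red), and Cadps, sv, Actbeta and Ekar, lower in dTet discs (blue); all others are grey and their intervals are widest for genes of few counts.

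Without control replicate 1 the picture changed: 29 of the 56 genes were called (51.8%), against 33.3% of all tested genes. Of these, 23 were higher in dTet discs (41.1%, against 14.5% of all genes) and 6 were lower (10.7%, against 18.8%). The median log2 fold change of the 56 was then 0.26, against -0.02 over all genes. The 6 genes called with all libraries kept their call and direction. Ephrin changed sign and was called, and CaMKI, CaMKII, Taf3, Pur-alpha, Eph, Gat, fuss and CR32009 changed from a value below 0 to one above 0 without a call in either fit. With all controls kept, and taking genes at 50 CPM or more, dTet discs lay below control replicate 1 by a median of 0.32 (median difference -0.32) and above control replicates 2 and 3 by a median of 0.32 on the log2 scale. Elsewhere in the genome the median was 0.03 for dTet minus control replicate 1 and 0.11 for dTet minus control replicates 2 and 3. The 56 genes are long, at a median exon length of 4480.5 bases against 2094 bases over all tested genes. At 50 CPM and 2000 bases or more, dTet minus control replicates 2 and 3 had medians of 0.35 on chromosome 4 and 0.21 elsewhere. Under 2000 bases the median elsewhere was -0.21. The part of exon length in these values was not tested.

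Neuronal transmission genes held the strongest fall. Ekar encodes a kainate-type glutamate receptor subunit and lies at chr4:636131-646556 on the minus strand. Its level was 0.419, 0.0546 and 0.147 CPM (7, 1 and 3 counts) in dTet discs, against 62.4, 31.3 and 34.3 CPM (1336, 562 and 600 counts) in control discs. The gene was nearly without counts in every dTet library and well counted in every control library. That is a log2 fold change of -7.70 (SE 0.49, 95% interval -8.81 to -6.58, edgeR adjusted p = 1.44e-05), which is 207-fold lower. The size rests on 11 dTet counts and was 391-fold without dTet replicate 1.

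Cadps, a protein that prepares dense core vesicles for release, fell less. It lies at chr4:1230837-1271759 on the plus strand and measured 81.2, 76.4 and 96.9 CPM in dTet discs, against 192, 132 and 131 CPM in control discs. All dTet libraries were below all control libraries, and control replicate 1 was the highest. The log2 fold change was -0.84 (SE 0.17, 95% interval -1.22 to -0.46, edgeR adjusted p = 0.0125), and the call was lost when dTet replicate 1 (adjusted p = 0.0536) or 2 (adjusted p = 0.0666) was left out. Gat, a transporter of the transmitter GABA, was low, at 3.23 ± 1.24 CPM in dTet discs and 3.30 ± 1.73 CPM in control discs (SD, n = 3 each), with a log2 fold change of -0.03 (95% interval -1.19 to 1.13).

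These falls stood beside lower neuronal markers and lower levels of some photoreceptor markers. Of 5 tested photoreceptor markers, gl, sev and chp fell and ninaC and norpA were not called by edgeR, while DESeq2 called 4. The level of ninaC went the other way, at 3.89, 4.04 and 2.44 CPM in dTet discs, against 0.747, 1.78 and 0.457 CPM in control discs (log2 fold change 1.79, edgeR adjusted p = 0.0897). The 6 photoreceptor markers summed to 96.3 to 126 CPM in dTet discs, against 621 to 670 CPM in control discs, with trp at 0 counts in all dTet libraries and in control replicates 2 and 3. Of 5 glial markers, repo, moody and loco fell, and Gs2 and gcm were not called. The level of Gs2 went the other way, at 10.9, 19.4 and 7.62 CPM in dTet discs, against 4.90, 12.7 and 5.14 CPM in control discs (log2 fold change 0.74, edgeR adjusted p = 0.306). That of gcm was low, at means of 0.164 CPM in dTet discs and 0.867 CPM in control discs. The glial sum was 109 to 127 CPM in dTet discs, against 188 to 223 CPM in control discs. Its largest part was loco, at means of 90.3 CPM in dTet discs and 164 CPM in control discs. The part of these cell types in the values of Ekar, Cadps, Actbeta and sv was not tested.

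**Figure D4:**
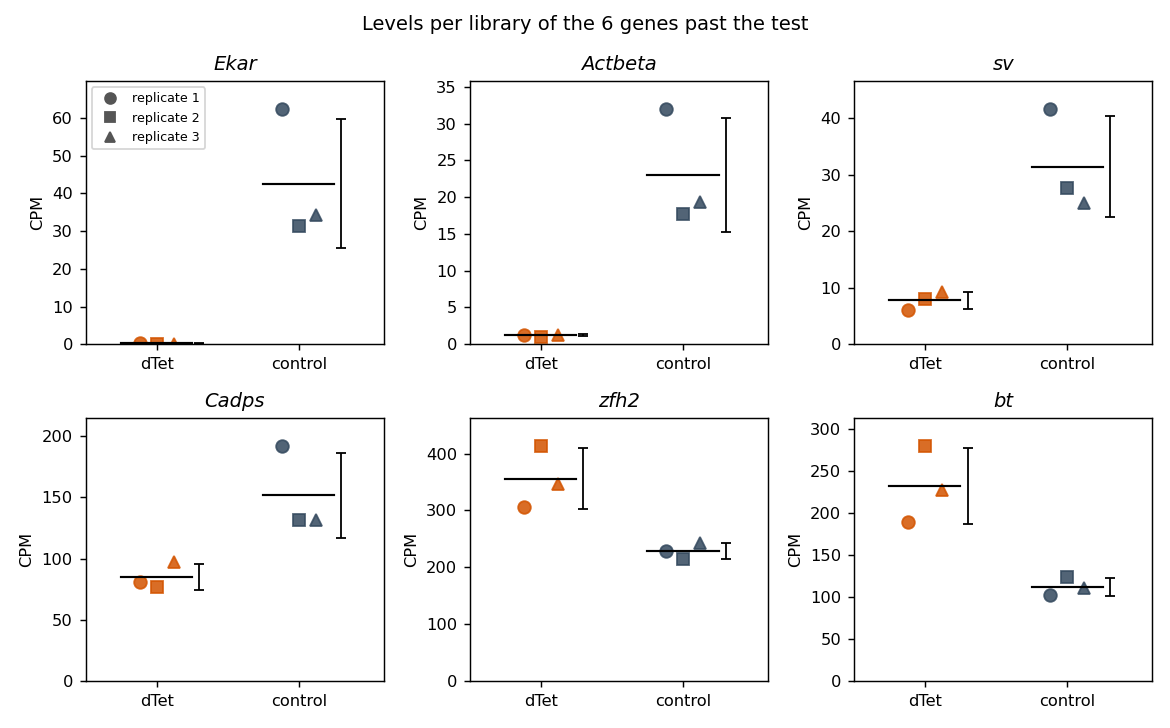
Levels in CPM of the 6 genes past the test, with dTet libraries (orange) left of control libraries (blue), one symbol shape per replicate number, the group mean as a horizontal line and the SD as a bar beside it. Ekar, Actbeta, sv and Cadps are lower in every dTet library than in any control library, and zfh2 and bt are higher.

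Of 3 ligands of the TGF-beta family on the chromosome, 1 fell. Actbeta encodes an activin-type ligand that signals through the receptor babo and the transducer Smox. At chr4:1077331-1084796 on the minus strand, it measured 1.32, 1.04 and 1.27 CPM in dTet discs, against 32.0, 17.7 and 19.4 CPM in control discs. The 3 dTet libraries were close together and far below the lowest control. The log2 fold change was -4.25 (SE 0.31, 95% interval -4.94 to -3.55, edgeR adjusted p = 3.03e-05), or 19.0-fold lower.

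The other ligands, myo (myoglianin) and mav (maverick), were expressed at higher levels than Actbeta per kb of exon, at 36.6 and 50.5 CPM per kb in dTet discs, where Actbeta was at 0.329 CPM per kb. The level of myo was 148, 133 and 155 CPM in dTet discs, against 172, 85.2 and 98.8 CPM in control discs. That of mav was 117, 132 and 161 CPM in dTet discs, against 141, 95.6 and 99.9 CPM in control discs. For both, every dTet library exceeded control replicates 2 and 3 while control replicate 1 lay within or above the dTet values. The log2 fold change was 0.29 for myo (95% interval -0.23 to 0.81, edgeR adjusted p = 0.435) and 0.28 for mav (95% interval -0.11 to 0.68, adjusted p = 0.316). Without control replicate 1 both were called higher, at 0.64 for myo (adjusted p = 0.00134) and 0.47 for mav (adjusted p = 0.0183). So were 41.1% of the 56 genes in that fit, and 14.5% of all tested genes.

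Other listed genes of activin and TGF-beta signalling did not differ past the test, where edgeR called 11.4% of all tested genes. Of 10 genes (babo, put, tkv, sax, wit, Smox, Mad, Med, daw and Fs), edgeR called 0, with 2 at an unadjusted p under 0.05, and DESeq2 and limma-voom also called 0. Their median log2 fold change was 0.02. Smox was called higher without control replicate 1.

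Among the transcription factors, sv fell and zfh2 rose. The gene sv (shaven, the fly Pax2) acts in cone cells, pigment cells and bristle lineages and lies at chr4:1088798-1113317 on the plus strand, next to Actbeta. It measured 6.10, 7.92 and 9.19 CPM in dTet discs, against 41.5, 27.5 and 24.9 CPM in control discs. The groups were well apart. The log2 fold change was -2.02 (SE 0.24, 95% interval -2.57 to -1.47, edgeR adjusted p = 0.000727), or 4.04-fold lower.

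Genes that act with sv in cone cells moved in both directions. The Runx factor lz fell to 7.29, 12.3 and 7.58 CPM in dTet discs, against 76.0, 60.2 and 56.7 CPM in control discs (log2 fold change -2.83, edgeR adjusted p = 5.73e-05). The homeodomain factor pros fell to 21.5, 9.998 and 8.85 CPM in dTet discs, against 32.6, 49.95 and 28.1 CPM in control discs (-1.46, adjusted p = 0.0273). The homeodomain factor ct, which also marks the antennal part of the disc, rose to 134, 138 and 139 CPM in dTet discs, against 77.4, 73.1 and 68.7 CPM in control discs (0.90, adjusted p = 0.000422). For lz, pros and ct the groups did not overlap. The receptors Egfr and N were not called, at log2 fold changes of 0.03 and 0.36, and N was called higher without control replicate 1 (0.46, edgeR adjusted p = 0.00207).

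The zinc finger and homeodomain gene zfh2, at chr4:501810-540874 on the plus strand, measured 307, 414 and 347 CPM in dTet discs, against 228, 214 and 242 CPM in control discs. All dTet libraries were above all controls, and control replicate 1 was in the middle of its group. The edgeR fit gave a log2 fold change of 0.64 (SE 0.13, 95% interval 0.35 to 0.93, edgeR adjusted p = 0.0125). The call was lost when dTet replicate 2 (adjusted p = 0.0578) or 3 (adjusted p = 0.0573) was left out.

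The nuclear partners of Wnt signalling did not pass the test. The TCF factor pan, which binds Wnt target genes, measured 216, 231 and 228 CPM in dTet discs, against 301, 247 and 254 CPM in control discs. Its groups did not overlap, and its log2 fold change was -0.25 (95% interval -0.50 to 0.01, edgeR adjusted p = 0.185). The adaptor lgs, which links beta-catenin to the coactivator pygo, measured 221, 211 and 230.4 CPM in dTet discs, against 241, 179 and 165 CPM in control discs, with overlapping groups (0.18, 95% interval -0.15 to 0.51), and was called higher without control replicate 1 (0.34, edgeR adjusted p = 0.0134). Of arm, pygo, gro, nej and osa, edgeR, DESeq2 and limma-voom called 0, with 1 at an unadjusted p under 0.05, and nej was called higher without control replicate 1 (0.26, edgeR adjusted p = 0.0493).

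The factors pho, Hcf, Mitf and Sox102F were not called with all libraries and were all called higher without control replicate 1. That fit called 41.1% of the 56 genes higher, and 14.5% of all tested genes. The level of pho, a DNA-binding recruiter of Polycomb complexes, was 175, 172 and 194 CPM in dTet discs, against 209.7, 141 and 141 CPM in control discs. That of Hcf, a chromatin cofactor, was 377, 399 and 429.9 CPM in dTet discs, against 487, 302 and 333 CPM in control discs. In both, the dTet libraries lay between control replicate 1 and the other controls. Mitf, a regulator of lysosomal genes, measured 229, 231 and 248 CPM in dTet discs, against 245, 145 and 164 CPM in control discs. Sox102F, a Sox family factor, measured 49.8, 43.7 and 62.9 CPM in dTet discs, against 49.6, 39.9 and 32.5 CPM in control discs. For these 2 genes control replicate 1 fell inside the dTet range. The log2 fold changes were 0.14 for pho, 0.10 for Hcf, 0.35 for Mitf and 0.36 for Sox102F with all libraries. They were 0.34 for pho, 0.32 for Hcf, 0.59 for Mitf and 0.51 for Sox102F without control replicate 1. Of 10 listed Polycomb recruiters and partners (phol, Sfmbt, Pc, E(z), Su(z)12, esc, ph-p, ph-d, Psc and Sce), edgeR, DESeq2 and limma-voom called 0, with 0 at an unadjusted p under 0.05. By edgeR, 11.4% of all tested genes were called and 28.8% were at an unadjusted p under 0.05.

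Low factors gave wide intervals. NfI, of the nuclear factor I family, had 1, 6 and 0 counts in dTet discs, against 51, 24 and 14 counts in control discs. Every dTet library was below every control, with a log2 fold change of -3.50 (95% interval -5.84 to -1.15, edgeR adjusted p = 0.0614); DESeq2 called it (adjusted p = 0.0130). The zinc finger gene dati measured 0.598, 0.765 and 0 CPM in dTet discs, against 1.35, 1.84 and 0.0571 CPM in control discs. The Ski/Sno relative fuss measured 0.897, 0.983 and 0.782 CPM in dTet discs, against 2.01, 0.502 and 0.228 CPM in control discs. Both overlapped between groups, with 95% intervals of -4.04 to 1.51 for dati and -1.88 to 1.77 for fuss.

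The general transcription genes Taf3 (a TFIID subunit), MED26 (a Mediator subunit) and Pur-alpha (a single-strand nucleic acid binding protein) had log2 fold changes of -0.04, 0.12 and -0.10. None was called with all libraries, and MED26 was called higher without control replicate 1 (0.45, edgeR adjusted p = 0.00899).

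The Eph and Plexin genes, whose products steer axons and cell contacts, shared the split of the control group. The receptor Eph measured 396, 372 and 424 CPM in dTet discs, against 553, 332 and 339.7 CPM in control discs. Its ligand Ephrin measured 225, 252 and 243 CPM in dTet discs, against 343, 190.1 and 207 CPM in control discs. In both genes all dTet libraries lay below control replicate 1 and above control replicates 2 and 3. The semaphorin receptor PlexA measured 797, 781 and 847 CPM in dTet discs, against 971, 545 and 622 CPM in control discs. The related receptor PlexB measured 179, 187 and 202 CPM in dTet discs, against 246, 135 and 163 CPM in control discs. The dTet libraries of both Plexin genes again lay between control replicate 1 and the rest.

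The log2 fold changes were -0.04 for Eph (95% interval -0.47 to 0.39), -0.04 for Ephrin (-0.50 to 0.42), 0.18 for PlexA (-0.27 to 0.63) and 0.06 for PlexB (-0.38 to 0.51). Cals, a cadherin-like calsyntenin of the cell surface, stood at 0.11 (-0.35 to 0.57). Without control replicate 1, edgeR called PlexA (0.45, adjusted p = 0.0033), Cals (0.38, adjusted p = 0.0278), PlexB (0.33, adjusted p = 0.0355) and Ephrin (0.26, adjusted p = 0.0482) higher in dTet discs, so that Ephrin changed sign. Eph was not called then (0.23, adjusted p = 0.0642). The same fit called 41.1% of the 56 genes higher, against 14.5% of all tested genes. Of 7 semaphorins and plexin effectors (Sema1a, Sema1b, Sema2a, Sema2b, Sema5c, Mical and otk), edgeR, DESeq2 and limma-voom called 0, with 1 at an unadjusted p under 0.05. Sema2a was called higher without control replicate 1 (0.39, edgeR adjusted p = 0.00779).

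Both DNA repair genes varied little across the 6 libraries. Tdg, a DNA glycosylase whose mammalian relative removes bases that TET enzymes have oxidised, measured 155.6 ± 13.9 CPM in dTet discs and 148.2 ± 6.33 CPM in control discs (SD, n = 3 each). The fitted log2 fold change was 0.07 (95% interval -0.17 to 0.31, edgeR adjusted p = 0.699), and without control replicate 1 it was 0.08. Its exons overlap those of lncRNA:CR43958 on the same strand, so part of its reads may not have been counted. Rad23, which acts in nucleotide excision repair and protein turnover, measured 291.0 ± 6.24 CPM in dTet discs and 277.8 ± 15.1 CPM in control discs, with a log2 fold change of 0.07 (-0.16 to 0.29).

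The 3 mRNA silencing genes were not called with all libraries, by edgeR, DESeq2 or limma-voom, nor did any reach an unadjusted p under 0.05. Of all tested genes, edgeR called 11.4%, and 28.8% were at an unadjusted p under 0.05. The log2 fold changes were 0.21 for gw, the GW182 protein of microRNA silencing, 0.25 for Gyf, a repressor of translation, and 0.14 for 4E-T, a partner of the cap-binding factor. Their 95% intervals lay between -0.27 and 0.64. All 3 were called higher without control replicate 1, at 0.36 for gw, 0.47 for Gyf and 0.38 for 4E-T. In that fit 41.1% of the 56 genes were called higher, against 14.5% of all tested genes.

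In the cytoskeleton and traffic group, bt rose and 5 genes were not called. The gene bt (bent) encodes projectin, a giant titin-like protein of muscle, and at 28019 bases has the longest exon sequence of these genes. At chr4:724400-776474 on the plus strand, it measured 189, 279.6 and 228 CPM in dTet discs, against 102, 123 and 111 CPM in control discs. The lowest dTet library was above the highest control. The log2 fold change was 1.06 (SE 0.15, 95% interval 0.71 to 1.40, edgeR adjusted p = 0.00213), or 2.08-fold higher.

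Of 10 muscle markers, Mhc and Prm rose and 8 were not called by edgeR, and none was at 0. DESeq2 called 4, and Act57B was called higher by edgeR without control replicate 1. Their summed level was 1043, 1415 and 1153 CPM in dTet discs, against 1006, 1032 and 1046 CPM in control discs. The highest sum was in dTet replicate 2, where bt was also highest. The part of muscle RNA in the value of bt was not tested.

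Of the rest of this group, Ank (an ankyrin that ties membrane proteins to spectrin) had a log2 fold change of 0.14, Zyx (zyxin, of focal adhesions) -0.17, Arl4 (a small GTPase) -0.21 and Kif3C (a kinesin with few counts) -0.75. Arf102F, an Arf GTPase of the secretory pathway, had the highest level per kb of exon among these genes in both groups. It measured 177, 168 and 166 CPM in dTet discs, against 169.9, 228 and 229 CPM in control discs, or 183 CPM per kb in dTet discs and 225 CPM per kb in control discs. Control replicate 1 lay within the dTet range, and the log2 fold change was -0.30 (95% interval -0.59 to 0.00). At 930 bases Arf102F is short, and without control replicate 1 it was called lower (-0.44, edgeR adjusted p = 0.0024), while Ank was called higher (0.49, adjusted p = 0.00459).

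None of the 9 kinase and signalling genes was called by edgeR with all libraries, with Crk and PIP4K alone at an unadjusted p under 0.05. Over all tested genes 11.4% were called and 28.8% were at an unadjusted p under 0.05. Crk, an SH2 and SH3 adaptor, measured 194, 186 and 198 CPM in dTet discs, against 225, 248 and 236 CPM in control discs. PIP4K, a phosphoinositide kinase, measured 195, 181 and 204 CPM in dTet discs, against 261, 220.3 and 224 CPM in control discs. In both genes the dTet libraries lay below all controls, and in control discs their levels per kb were next after Arf102F. The log2 fold change was -0.30 for Crk (95% interval -0.52 to -0.07, edgeR adjusted p = 0.0866) and -0.28 for PIP4K (95% interval -0.54 to -0.03, adjusted p = 0.136). Both genes are short, at 1357 bases for Crk and 1493 bases for PIP4K. Short genes elsewhere also tended to be lower in dTet discs. Their median log2 fold change was -0.39 for 409 genes of at most 1077 bases at 50 CPM or more. Crk was called by DESeq2 (adjusted p = 0.0344) and by edgeR without control replicate 1 (adjusted p = 0.0086).

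The calcium-dependent kinases CaMKI and CaMKII had log2 fold changes of -0.10 and -0.05, with 95% intervals between -0.43 and 0.28. The spindle-associated kinase Asator had -0.27, the Dyrk family kinase Dyrk3 0.10, the channel-binding protein Slip1 0.20 and the ubiquitin ligase Rnf11 -0.21. Slip1 (0.30) and Dyrk3 (0.34) were called higher without control replicate 1, as were 41.1% of the 56 genes and 14.5% of all tested genes.

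The transporters and lipid carriers held 5 genes, and 0 were called with all libraries, by edgeR, DESeq2 or limma-voom, with 0 at an unadjusted p under 0.05. The shares over all tested genes were 11.4% called by edgeR and 28.8% at an unadjusted p under 0.05. The calcium pump PMCA had a log2 fold change of 0.03, the transporter gene anne 0.21 and the zinc transporter Zip102B -0.14. Both anne (0.61) and PMCA (0.27) were called higher without control replicate 1, as were 41.1% of the 56 genes and 14.5% of all tested genes. The lipoprotein gene apolpp, made mainly by the fat body, was the most uneven, at 133, 58.2 and 70.2 CPM in dTet discs, against 176, 63.0 and 125 CPM in control discs (-0.48, 95% interval -1.34 to 0.38). The 6 fat body markers summed to 1474, 616 and 412 CPM in dTet discs, against 1739, 601 and 2581 CPM in control discs, and edgeR, DESeq2 and limma-voom called 0 of the 6, with 1 at an unadjusted p under 0.05, and Fbp2 was called lower without control replicate 1. The libraries of lowest apolpp were among those of low fat body markers. Control replicate 3 had the highest marker sum but less apolpp than control replicate 1 and dTet replicate 1. The part of fat body RNA was not tested.

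The remaining genes were low. The pseudogene CR43361 measured 23.04 ± 3.19 CPM in dTet discs and 20.9 ± 0.719 CPM in control discs (SD, n = 3 each). The pseudogenes CR32009, CR32010, CR32011 and CR46405 and the yellow family gene yellow-h all averaged under 5 CPM in both groups. Their 95% intervals reached from -2.02 to 1.99 on the log2 scale.

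Along the chromosome the 6 called genes stood at positions 44 (zfh2), 55 (Ekar), 62 (bt), 84 (Actbeta), 85 (sv) and 96 (Cadps) of its 96 tested genes. Actbeta and sv, which both fell, were direct neighbours on opposite strands. The gene bt, which rose, follows ey, which was lower in dTet discs (log2 fold change -2.43, edgeR adjusted p = 4.51e-06). The other neighbours of the 6 genes were not called. Over all 96 tested genes of the chromosome, including those left out here, 18 were called (18.8%), of which 14 were lower and 4 higher. Without control replicate 1 the share was 46.9%, with 30.2% higher and 16.7% lower, so that the balance of direction turned, and it was 31.9% to 34.4% on the other arms. The share called was 9.21% on X and 11.4% to 12.1% on the 4 large autosomal arms. No test of the difference between chromosomes was made.

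**Figure D5:**
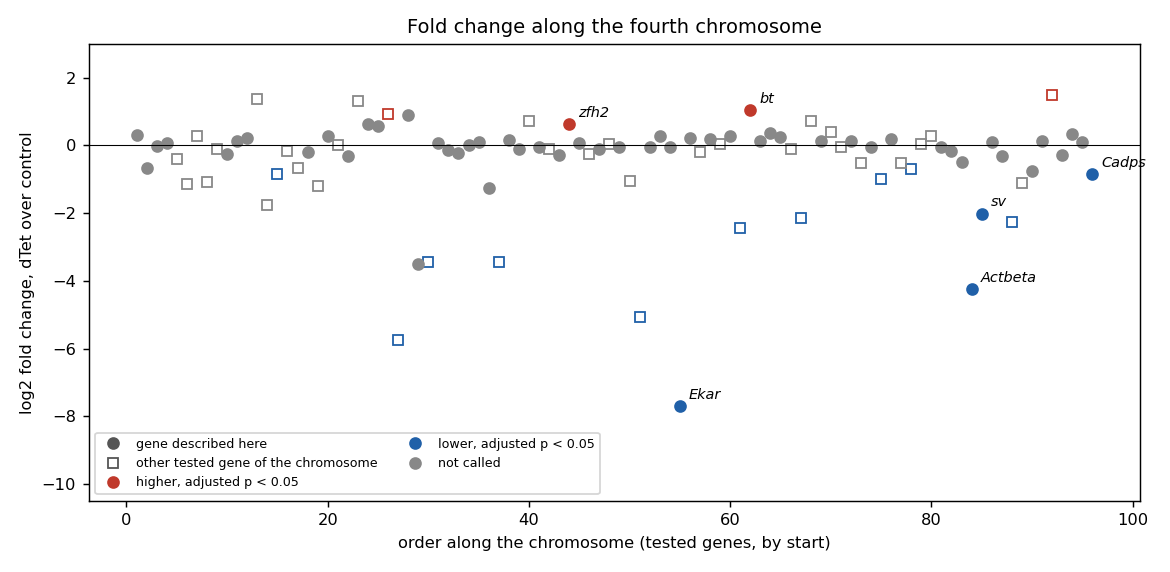
Log2 fold change of dTet over control for the 96 tested genes of the fourth chromosome, placed by their order along it. Filled circles are the 56 genes described here and open squares the others, with genes past the test in red (higher in dTet discs) and blue (lower in dTet discs); Actbeta and sv are neighbours, and most genes lie near 0.

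The chromatin genes listed for the fourth chromosome did not differ past the test with all libraries. Of Pof, egg, wde, HP1a, Su(var)3-7, Su(var)3-9, G9a, HP1c and JIL-1, edgeR called 0 of 9, with 1 at an unadjusted p under 0.05, DESeq2 called 1 and limma-voom 0. Pof, the protein that binds the chromosome's active genes, measured 55.1, 51.1 and 49.1 CPM in dTet discs, against 50.1, 50.5 and 49.3 CPM in control discs. Its level was alike in control replicate 1 and the other controls, and its log2 fold change was 0.05 (edgeR adjusted p = 0.782). HP1a measured 459, 459 and 465 CPM in dTet discs, against 479, 621 and 518 CPM in control discs (-0.23, adjusted p = 0.262). The cofactor wde was at 160.1, 146 and 151 CPM in dTet discs, against 134, 105 and 97.1 CPM in control discs (0.44, adjusted p = 0.0666), with groups apart. Without control replicate 1, 6 of the 9 were called, with egg, wde, G9a and JIL-1 higher and HP1a and HP1c lower, in a fit that called 33.3% of all tested genes (14.5% higher and 18.8% lower).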

How the data were processed

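Total RNA of eye-antennal discs was made into stranded libraries, per the labels' protocols, for 3 dTet and 3 control samples. Reads were checked with FastQC 0.12.1 and aligned with HISAT2 2.2.0 to dm6, per the submitters' processing notes. The deposited values are read pair counts by gene symbol, which the authors obtained with featureCounts 2.0.6 over the exons of FlyBase annotation 6.45, with both mates mapped and strand setting 2, per the file headers. By that program's defaults, pairs that overlap several genes or map to several places are not counted. They were not normalized and sum to 16395675 to 20242356 pairs per library.

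All genes were fitted in R 4.3.3 with edgeR 4.0.16: filterByExpr by group, which left 9417 genes, TMM scaling and the quasi-likelihood test without covariates, with Benjamini-Hochberg adjustment over all tested genes at 0.05. CPM is the count per 1000000 of TMM-scaled library size; deviations use log2 CPM with a prior count of 2. The SE is the log2 fold change over the root of the F statistic, and 95% intervals from its t distribution. Alternatives were DESeq2 size factors, upper quartile scaling, no low-count filter, 1 CPM in 3 libraries, DESeq2 1.42.0, voom of limma 3.58.1, the replicate number as a block, and each library left out.

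The genes described, the gene lists and the marker lists were chosen with earlier results of these data known, and support nothing by themselves. Values per library were given for genes past the test, the TGF-beta ligands, the Eph and Plexin genes, the transcription factors with their cofactors, and the 3 genes of highest read pairs per kb of exon in control discs. Values of w, ninaC, wde, Pof and Su(var)205 and of apolpp were chosen after they were seen. For 2 of the genes, values are not reported here by name, though the counts include them. A protein, promoter or snoRNA sequence was not used here.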

Additional observations from a re-analysis of the deposited data

How the results depend on the processing

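Of the 56 tested genes, 6 were called under DESeq2's size factors, upper quartile scaling, limma-voom and the replicate block. It was also 6 of 58 tested with no low-count filter and 6 of 52 tested at 1 CPM in 3 libraries. Each time 2 were higher and 4 lower in dTet discs. DESeq2 called 8 of the 56 (2 higher, 6 lower). Without dTet replicate 3, 55 were tested. With each library left out in turn, the called genes numbered 5 to 29, those higher 1 to 23 and those lower 3 to 6; the highest of each came without control replicate 1. The median log2 fold change of the 56 ranged from -0.10 to 0.26 and was below 0 without control replicate 2 (-0.10) or control replicate 3 (-0.04). Over all genes the calls numbered 560 to 3231 with a library left out, 902 with the replicate block and 1733 by DESeq2, against 1074; on the 5 other arms they numbered 546 to 3186, and 1711 by DESeq2, against 1056. The lists of partner genes held 3 calls, 2 to 13 with a library left out and 5 by DESeq2. Ephrin, at -0.04, ranged from -0.20 to 0.26 with a library left out and was called without control replicate 1 (0.26, edgeR adjusted p = 0.0482). A sign change with no call in either fit occurred 34 times over 18 genes. The replicate block had no ground in a pairing: deviations of libraries that share a number correlated at 0.03, 0.02 and -0.10 over all tested genes. Why the values moved with control replicate 1 was not tested. With 3 libraries a group, genes of a few counts gave intervals too wide to show differences of several fold.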
